A study of Mus musculus with 12 samples.

Results

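Peritoneal lavage brings up B cells together with macrophages, and 9 genes that mark B cells were followed here across the arrays of cultured peritoneal macrophages (PMs). The markers were *Cd79a*, *Cd79b*, *Cr2*, *Cd22*, *Ms4a1*, *Blk*, *Fcrla*, *Pax5* and *Ebf1*, chosen by name as B cell genes. All 9 had a probe set assigned to a single gene symbol, and each was read from its probe set with the highest mean over the 12 arrays, as were all 18193 genes of the table. No member was lost to a filter on low signal, since none was applied.

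The study asked how miR-21, a microRNA that sensory neurons release in exosomes, changes gene expression in macrophages. Cells of the mouse peritoneal cavity (C57BL/6 background, both sexes, per the methods; no age is given for the PM donors in the sources used) were left to adhere, then given antagomir-21 (an antisense inhibitor of miR-21), a scramble oligonucleotide or lipofectamine, the transfection reagent. Each of these was combined with exosomes of sensory neurons that carried excess miR-21 or a GFP reporter. The 6 resulting groups were antagomir-21 with miR-21 exosomes, antagomir-21 with GFP exosomes, scramble with miR-21 exosomes, scramble with GFP exosomes, lipofectamine with miR-21 exosomes and lipofectamine with GFP exosomes, with 2 Affymetrix arrays in each. The lipofectamine groups are named in the labels alone and were read as reagent without oligonucleotide. All cells thus received exosomes and the reagent, and no culture without exosomes was part of the comparison. The cultured cells were enriched by adhesion and no sort of them is described, so what other cells they held is known only from their RNA.

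B cells recognize antigen with membrane immunoglobulin, which signals through the CD79A and CD79B chains and is tuned by coreceptors such as CR2, which assists it, and CD22, which restrains it. The transcription factors EBF1 and PAX5 install and hold this program during B cell development. The peritoneal cavity of the mouse is known for its B-1 cells, which stand beside macrophages as a main resident population of lavage fluid.

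Since EBF1 is itself a member and is known to act on promoters of the receptor genes, the promoters of the members were searched for its motif CCCNNGGG, which reads the same on both strands. RefSeq (GRCm38.p6) promoters, running from 250 bases before to 50 bases after a gene's start, were found for 6 of the 9 genes, with 7 promoters in all. *Cd22* held 1 match and the other 6 promoters, of *Cd79a*, *Pax5*, *Fcrla*, *Ebf1* and *Cr2*, held none. Only exact matches were counted, so a promoter without a match may still hold an EBF1 site that departs from this motif. Over all genes 4491 of 32851 promoters (13.7%) held the motif, so 1 of 7 was close to the share at large. The promoter of *Cd22* (chr7:30878979-30879278, minus strand) is shown with its match in capitals, beside that of *Cd79a* (chr7:24897247-24897546, plus strand), the receptor chain with the largest spread over the arrays of any member but *Pax5*.
Cd22: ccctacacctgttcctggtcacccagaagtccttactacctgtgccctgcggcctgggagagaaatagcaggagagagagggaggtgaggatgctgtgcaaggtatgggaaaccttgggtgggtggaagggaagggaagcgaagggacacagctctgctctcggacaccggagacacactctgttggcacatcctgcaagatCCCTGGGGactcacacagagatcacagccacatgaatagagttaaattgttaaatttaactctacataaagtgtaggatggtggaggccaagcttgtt
Cd79a: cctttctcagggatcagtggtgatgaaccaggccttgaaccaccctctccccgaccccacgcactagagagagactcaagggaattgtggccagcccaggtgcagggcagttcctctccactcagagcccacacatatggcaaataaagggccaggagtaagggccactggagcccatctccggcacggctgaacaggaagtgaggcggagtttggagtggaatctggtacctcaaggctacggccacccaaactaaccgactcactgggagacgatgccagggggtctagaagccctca

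Macrophage genes were read on every array beside the B cell markers. *Csf1r*, which encodes the CSF1 receptor of macrophages, read 15.45 to 17.79 on the log2 scale, and *Adgre1*, which encodes F4/80, read 11.70 to 13.78. The mean log2 signal of 11 macrophage genes was between 11.42 and 12.87 on every array. The deposited values come without detection calls, so how far a low signal stands above background is not known, and in bulk RNA fewer B cells and less B cell RNA per cell cannot be told apart. A level of one probe set is not comparable with that of another, and each gene was therefore compared only with itself over the arrays.

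The receptor chain *Cd79a* fell into a high and a low set of arrays. Its log2 signal was 9.16 and 9.91 in antagomir-21 with miR-21 exosomes, 9.95 and 10.03 in antagomir-21 with GFP exosomes, 9.83 and 9.88 in scramble with miR-21 exosomes, 5.13 and 9.01 in scramble with GFP exosomes, 4.07 and 7.86 in lipofectamine with miR-21 exosomes, and 8.93 and 9.15 in lipofectamine with GFP exosomes. The first array of scramble with GFP exosomes and the first of lipofectamine with miR-21 exosomes were thus low, with a gap of 2.73 to the next array, and in scramble with GFP exosomes the other array was higher by 3.88. In lipofectamine with miR-21 exosomes the arrays differed by 3.79, so each low array had a partner of the same group with a clearly higher signal. Differences within groups carried 35.1% of its variance, and limma's F test over the 6 groups gave an unadjusted p of 0.0831 (adjusted p = 0.925).

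Its partner chain *Cd79b* did not share these low arrays. It read 6.54 and 8.99 in antagomir-21 with miR-21 exosomes, 9.76 and 10.43 in antagomir-21 with GFP exosomes, 9.68 and 9.14 in scramble with miR-21 exosomes, 9.01 and 9.40 in scramble with GFP exosomes, 10.03 and 7.80 in lipofectamine with miR-21 exosomes, and 8.84 and 9.74 in lipofectamine with GFP exosomes. The array lowest for *Cd79a*, the first of lipofectamine with miR-21 exosomes, was second highest for *Cd79b*. Over the 12 arrays the correlation of the chains was r = -0.02 (Spearman's rho = 0.28), and r = 0.56 over the 10 arrays left when the 2 with the lowest *Cd79a* were taken out.

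Among the coreceptors, *Cr2* (complement receptor CD21) read 4.91 and 7.84 in antagomir-21 with miR-21 exosomes, 9.37 and 7.89 in antagomir-21 with GFP exosomes, 8.42 and 6.07 in scramble with miR-21 exosomes, 9.56 and 8.04 in scramble with GFP exosomes, 4.58 and 7.90 in lipofectamine with miR-21 exosomes, and 8.90 and 7.54 in lipofectamine with GFP exosomes. It differed by at least 1.36 between the 2 arrays of every group, and its 3 lowest arrays all had miR-21 exosomes. *Cd22*, an inhibitory lectin of the B cell surface, read 10.55 and 8.27 in antagomir-21 with miR-21 exosomes, 10.11 and 10.38 in antagomir-21 with GFP exosomes, 9.04 and 10.58 in scramble with miR-21 exosomes, 9.61 and 10.16 in scramble with GFP exosomes, 9.45 and 10.13 in lipofectamine with miR-21 exosomes, and 10.04 and 10.39 in lipofectamine with GFP exosomes. Its highest and its lowest arrays were both in the miR-21 exosome groups, and 81.7% of its variance lay within groups.

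*Ms4a1*, which encodes the B cell surface protein CD20, read 13.49 and 11.38 in antagomir-21 with miR-21 exosomes, 12.89 and 12.74 in antagomir-21 with GFP exosomes, 11.64 and 13.84 in scramble with miR-21 exosomes, 11.82 and 12.35 in scramble with GFP exosomes, 11.19 and 12.66 in lipofectamine with miR-21 exosomes, and 12.56 and 12.36 in lipofectamine with GFP exosomes. No array fell 2 log2 units below its median of 12.46, and 82.7% of its variance was within groups. *Ms4a1* and *Cd22* were high together on the first array of antagomir-21 and the second of scramble, both with miR-21 exosomes, and low together on the other array of each pair. The other *Ms4a1* probe set kept this order in both groups. The other *Cd22* probe set kept it for antagomir-21 (8.13 and 7.34) but reversed it for scramble (8.27 and 4.30). *Blk*, a Src family kinase of the B cell receptor pathway, read 6.48 and 6.66 in antagomir-21 with miR-21 exosomes, 8.98 and 5.83 in antagomir-21 with GFP exosomes, 5.21 and 7.83 in scramble with miR-21 exosomes, 4.72 and 7.91 in scramble with GFP exosomes, 4.99 and 7.98 in lipofectamine with miR-21 exosomes, and 7.87 and 9.41 in lipofectamine with GFP exosomes. In 4 of the 6 groups its arrays differed by more than 2 log2 units, and 70.5% of its variance lay within groups.

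*Fcrla*, an intracellular Fc receptor-like protein of B cells, had the smallest spread of the 9. It read 9.96 and 8.94 in antagomir-21 with miR-21 exosomes, 9.14 and 9.39 in antagomir-21 with GFP exosomes, 9.69 and 10.17 in scramble with miR-21 exosomes, 9.67 and 9.28 in scramble with GFP exosomes, 8.98 and 8.87 in lipofectamine with miR-21 exosomes, and 9.22 and 9.35 in lipofectamine with GFP exosomes. Its SD over the 12 arrays was 0.41, against a median SD of 1.48 over all genes, and 41.1% of its variance lay within groups. Some groups overlapped, but both arrays of scramble with miR-21 exosomes lay above those of either lipofectamine group. The other *Fcrla* probe sets did not show this separation. There scramble with miR-21 exosomes read 5.18 and 8.18, and 7.02 and 9.65, against lipofectamine arrays of up to 8.84 and 8.66. The share of all genes with such a separation was not counted. *Ebf1*, the early B cell factor, read 9.71 and 11.42 in antagomir-21 with miR-21 exosomes, 11.60 and 10.78 in antagomir-21 with GFP exosomes, 11.59 and 10.25 in scramble with miR-21 exosomes, 8.48 and 11.66 in scramble with GFP exosomes, 9.41 and 11.00 in lipofectamine with miR-21 exosomes, and 11.40 and 10.93 in lipofectamine with GFP exosomes. The lowest and the highest array were the 2 of scramble with GFP exosomes, and 79.7% of the variance lay within groups.

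**Figure D1:**
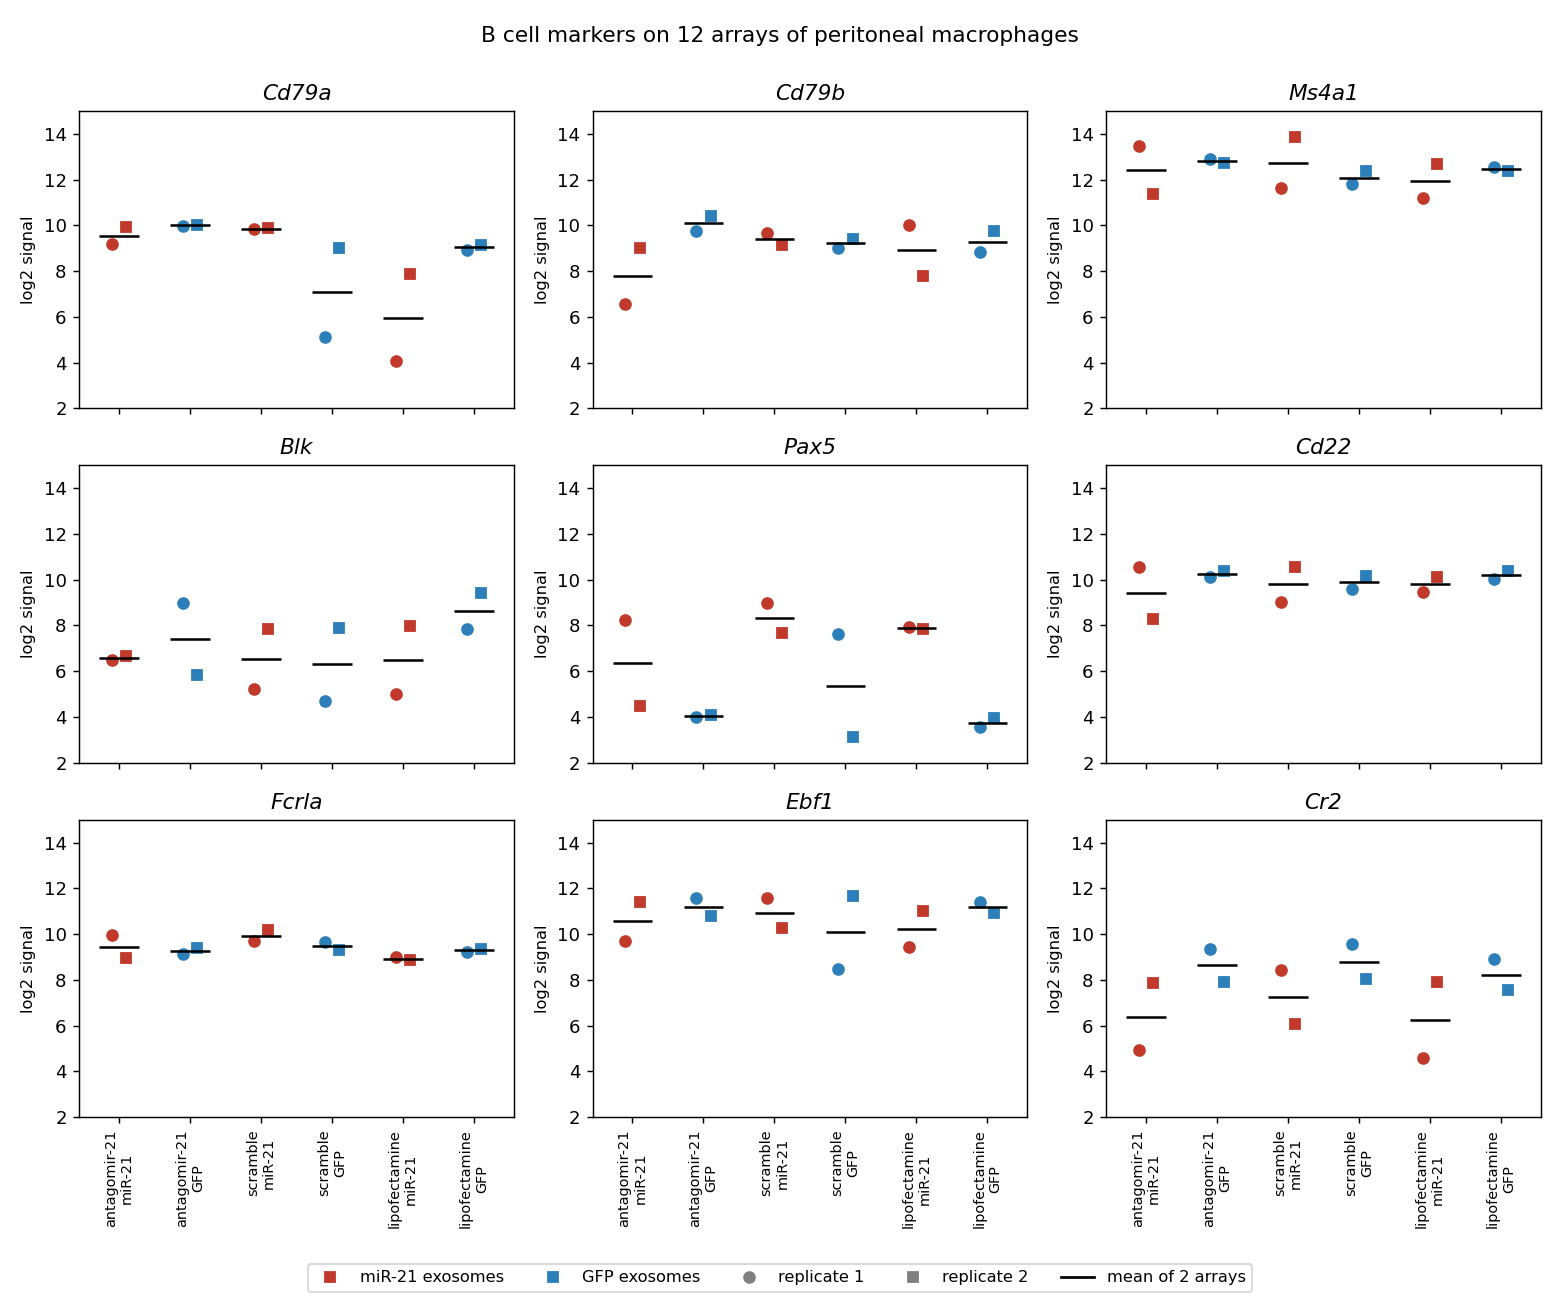
Log2 signal (vertical axis) of the 9 B cell markers on 12 arrays, by group (horizontal axis): circles are replicate 1, squares replicate 2, red miR-21 exosomes, blue GFP exosomes, and bars the mean of 2 arrays. *Cd79a* was low on 2 arrays of different groups, at 5.13 and 4.07, whereas *Fcrla* stayed between 8.87 and 10.17.

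The last transcription factor, *Pax5*, was the one member whose signal divided largely by exosome type. Its log2 signal was 8.25 and 4.50 in antagomir-21 with miR-21 exosomes, 3.99 and 4.10 in antagomir-21 with GFP exosomes, 8.99 and 7.66 in scramble with miR-21 exosomes, 7.61 and 3.11 in scramble with GFP exosomes, 7.94 and 7.83 in lipofectamine with miR-21 exosomes, and 3.55 and 3.95 in lipofectamine with GFP exosomes. A gap of 3.12 split the arrays into 6 high and 6 low. Of the 6 high arrays 5 had miR-21 exosomes, but one array of each exosome type lay on the other side, so the exosome types overlapped.

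Averaged over transfections, *Pax5* was 7.53 ± 1.56 with miR-21 exosomes and 4.39 ± 1.62 with GFP exosomes (SD, n = 6 arrays each), a log2 fold change of 3.14 (SE 0.89). limma gave an unadjusted p of 0.00512 and an adjusted p of 0.657 over 18193 genes. Leaving out any 1 array kept the fold change between 2.39 and 3.89. The signal also followed the arrays' overall level, with r = 0.83 against the array median (rho = 0.82, n = 12 arrays), 0.73 without the 2 arrays whose medians lay farthest out, and 0.78 after quantile normalization. The exosome difference itself was 2.71 after quantile normalization and 2.90 with each array centred on its median.

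A second probe set of *Pax5* did not show the difference. It ran between 3.65 and 7.18, with a log2 fold change of -0.41 (SE 0.73, unadjusted p = 0.587 by limma) for miR-21 against GFP exosomes. The correlation between the *Pax5* probe sets was r = -0.02 over the 12 arrays. The probe set with the exosome difference carries no transcript accession in the platform annotation, whereas the other one is assigned to a *Pax5* transcript. With the mean of both as the gene's value, the fold change was 1.37 (unadjusted p = 0.0677).

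**Figure D2:**
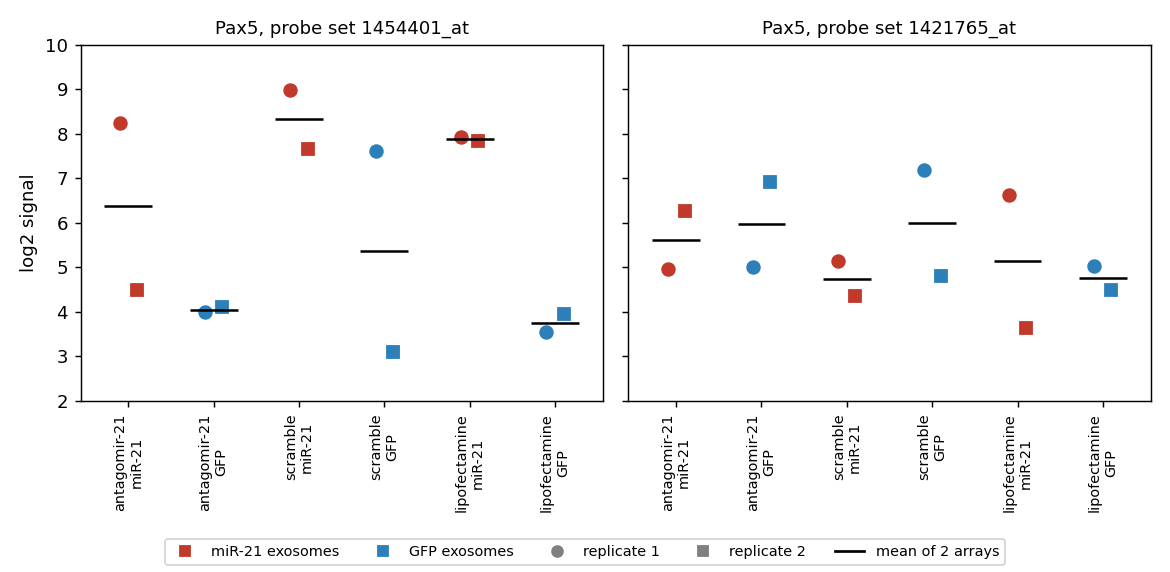
Log2 signal (vertical axis) of the 2 *Pax5* probe sets by group (horizontal axis), with circles for replicate 1, squares for replicate 2, red for miR-21 exosomes, blue for GFP exosomes and bars for the mean of 2 arrays. The exosome difference of the probe set on the left (log2 fold change 3.14) is not seen on the right (-0.41).

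Other members with several probe sets differed between them as well. The 5 members with more than 1 probe set gave 9 pairs of the chosen probe set with another one, whose mean r over the arrays was 0.07, with 3 pairs above 0. *Ebf1* spanned the range, with r = 0.79 to one of its other probe sets and -0.59 to another. Over the 9010 genes with several probe sets the mean was r = 0.06 (16752 pairs), which puts the members beside the table at large. The pattern of a member over the arrays thus depended on the probe set read.

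The question of group against array was then put to all 9 genes. Among the members 0 of 9 passed an unadjusted p of 0.05 in limma's F test over the 6 groups, against 5.96% of all genes (1085 of 18193), and 0 members and 0 genes passed an adjusted p of 0.05. With 2 arrays per group, 54.5% of a gene's variance is expected within groups if group makes no difference. The median over the members was 55.3%, against 58.9% over all genes. Of the 9 members 6 had most of their variance within groups, and the lowest shares were those of *Pax5* (33.1%) and *Cd79a* (35.1%).

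For miR-21 against GFP exosomes over all 12 arrays, 2 of 9 members were past an unadjusted p of 0.05 by limma, *Pax5* upward and *Cr2* downward, against 5.45% of all genes. *Cr2* averaged 6.62 ± 1.66 with miR-21 exosomes and 8.55 ± 0.84 with GFP exosomes (SD, n = 6 arrays each), a log2 fold change of -1.93 (SE 0.84, unadjusted p = 0.0442, adjusted p = 0.890 by limma). The exosome types overlapped for *Cr2*, and leaving out any one of 6 arrays took its unadjusted p above 0.05, at 0.102 to 0.127. These were the first arrays of antagomir-21 with either exosome, of lipofectamine with either exosome and of scramble with GFP exosomes, and the second array of scramble with miR-21 exosomes. The other 7 members had fold changes of -0.93 (*Blk*) to 0.10 (*Fcrla*) and none passed. The median over the 9 was -0.25, against -0.02 over all genes. The methods' t-test likewise gave 2 members at an unadjusted p under 0.05, and neither tool called a gene after adjustment (991 genes unadjusted by limma, 886 by the methods' t-test).

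For antagomir-21 against scramble, 0 of 9 members passed an unadjusted p of 0.05, against 5.16% of all genes, and 0 passed after adjustment by limma or by the methods' t-test. The members had fold changes of -1.63 (*Pax5*) to 1.30 (*Cd79a*), with 4 above 0, 5 below 0 and a median of -0.02. *Cd79a* averaged 9.76 ± 0.40 in the antagomir-21 arrays and 8.46 ± 2.26 in the scramble arrays (SD, n = 4 each). Without the low first array of scramble with GFP exosomes, its fold change of 1.30 (SE 1.01) was 0.33. Without the other array of that group it was 2.27, at an unadjusted p of 0.0406. *Pax5* likewise went to -0.51 without the first array and to -2.76 without the second.

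For scramble against lipofectamine, 0 of 9 members passed an unadjusted p of 0.05 by limma, against 4.14% of all genes. By the methods' t-test 1 member passed, *Fcrla*, against 3.44% of all genes, with a log2 fold change of 0.60 and overlapping ranges of 9.28 to 10.17 in the scramble arrays and 8.87 to 9.35 in the lipofectamine arrays. After adjustment 0 members passed by either tool. Fold changes ran from -1.15 (*Blk*) to 1.03 (*Pax5*), with 6 above 0 and a median of 0.22.

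The interaction asked whether the difference of antagomir-21 from scramble depended on the exosomes. All 9 members had a negative value, with a median of -1.04, against -0.12 over all genes, of which 9626 of 18193 were negative. With the mean of all probe sets of a gene the median was -0.51. None of the 9 passed an unadjusted p of 0.05 (all genes 5.36%) or an adjusted one by limma. The lowest values were those of *Cd79a* (-3.24, SE 2.03, unadjusted p = 0.140) and *Cd79b* (-2.53, SE 1.55, unadjusted p = 0.133). For *Cd79a* the value was -1.30 without the first array of scramble with GFP exosomes and -5.19 without the second, and for *Cd79b* it was -1.31 without the first array of antagomir-21 with miR-21 exosomes and -3.76 without the second.

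The members were next set against each other to see whether the arrays held more or less of a common B cell trace. Over the 36 pairs of members the mean r was 0.07 (n = 12 arrays), with 18 pairs above 0 and 18 below, against a mean of 0.00 over all pairs of genes. Pairs ran from -0.57 (*Blk* with *Pax5*) to 0.82 (*Ms4a1* with *Cd22*), and 5 of the 36 were above 0.5. *Pax5* ran against the rest, with r = -0.61 to the mean of the other members, and without it the mean over 28 pairs was 0.16. The points of these correlations share the arrays and their scaling.

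The closest pair was that of *Ms4a1* and *Cd22*, with r = 0.82 and rho = 0.82, and r = 0.87 without the 2 arrays farthest from the median of *Ms4a1*. After quantile normalization it was 0.61. Both genes also followed the spread of the arrays' values (r = 0.55 for *Ms4a1* and 0.67 for *Cd22* with the array SD). These values are those of the chosen probe sets. Their r with the gene's other probe set was 0.29 for *Ms4a1* and -0.28 for *Cd22*. The next pair, *Cd79a* with *Ebf1*, had r = 0.74 but rho = 0.38, and r = 0.05 without the arrays at 5.13 and 4.07 for *Cd79a*, so that it rested on those 2 arrays. *Blk* fell where the array median was high (r = -0.74), opposite to *Pax5*.

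Array by array, the mean log2 signal of the 9 members lay between 7.85, on the first array of lipofectamine with miR-21 exosomes, and 9.53, on the first of antagomir-21 with GFP exosomes. The mean was 8.78 and 8.66 in antagomir-21 with miR-21 exosomes, 9.53 and 9.06 in antagomir-21 with GFP exosomes, 9.34 and 9.49 in scramble with miR-21 exosomes, 8.40 and 8.99 in scramble with GFP exosomes, 7.85 and 9.11 in lipofectamine with miR-21 exosomes, and 9.03 and 9.20 in lipofectamine with GFP exosomes. The first arrays of lipofectamine with miR-21 exosomes and of scramble with GFP exosomes stood lowest, each below the other array of its group. Within groups lay 44.3% of the variance of this mean, against 44.2% for the mean of all genes.

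On each of those low arrays 3 of 9 members were more than 2 log2 units below their own median, against 0 to 2 on the other 10 arrays. They were *Cd79a*, *Blk* and *Ebf1* on the first array of scramble with GFP exosomes, and *Cd79a*, *Blk* and *Cr2* on the first of lipofectamine with miR-21 exosomes. Of all genes 13.7% and 17.0% were as far below their medians on these arrays, and between 5.36% and 16.8% on the others. The drop of *Ebf1* depended on the probe set. On the first array of scramble with GFP exosomes its other probe sets read 6.14, 8.34, 9.78 and 8.18. Their means over the arrays were 7.76, 7.94, 9.33 and 4.99. Of the 9 members 7 were below their own mean on the array of lipofectamine with miR-21 exosomes, with a median deviation of -1.22 and *Cd79a*, *Ms4a1* and *Cr2* at their lowest, and 6 were below on that of scramble with GFP exosomes, with a median deviation of -0.28. The exceptions were *Cd79b* (10.03) and *Pax5* (7.94) on the array with miR-21 exosomes. On the array with GFP exosomes they were *Cr2*, at its highest signal (9.56), *Pax5* (7.61) and *Fcrla* (9.67).

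**Figure D3:**
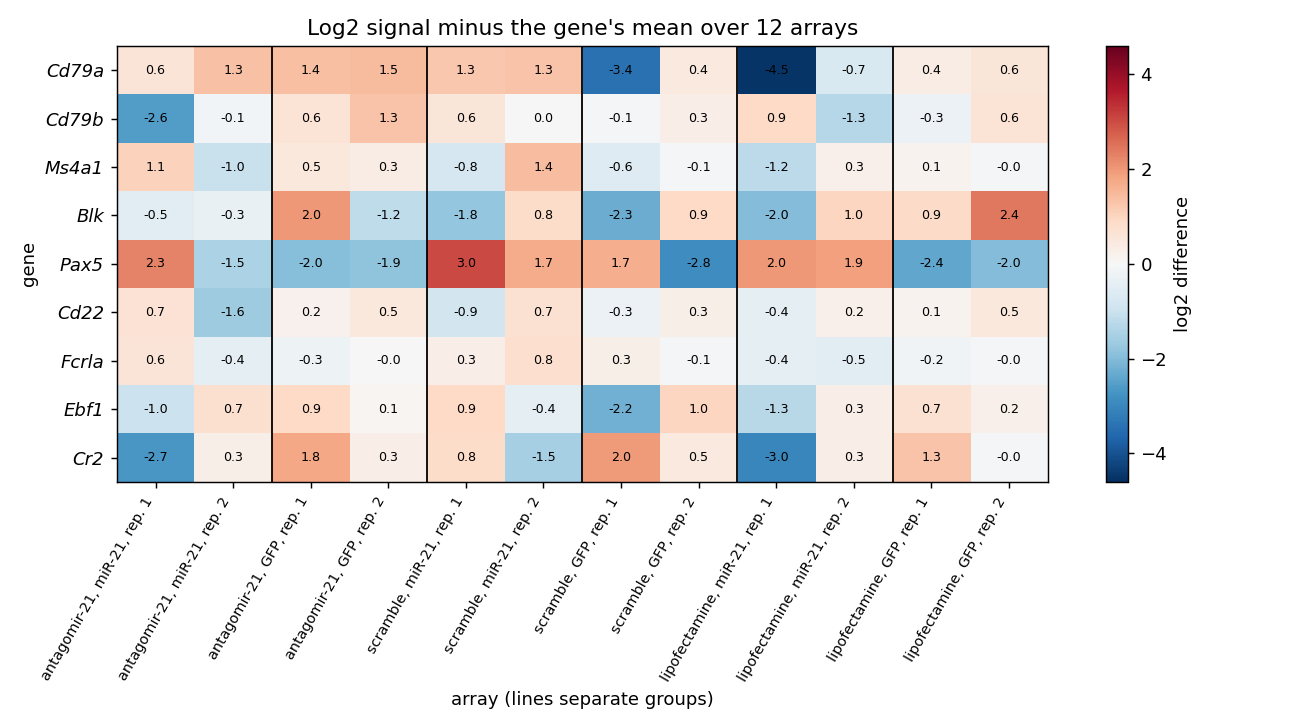
Log2 signal minus the gene's mean over 12 arrays (color, in log2 units, with the value printed) for each B cell marker (rows) on each array (columns, with lines between groups). Columns hold both colors: *Cd79a* was lowest (4.07) on the array where *Cd79b* was at 10.03.

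Genes of related cells were measured beside the members. A further 14 genes of the B lineage were measured. Their mean signal lay between 8.61 and 9.50 over the arrays, its r with the members' mean was 0.27, and 0 of 14 passed an unadjusted p of 0.05 in limma's F test. *Ighm*, the heavy chain of IgM, had its lowest and highest signals, 10.85 and 13.63, on the 2 arrays of scramble with miR-21 exosomes, and 75.4% of its variance lay within groups. The second of those arrays was also the highest for *Ms4a1*, *Cd22* and *Fcrla*, and for the macrophage gene *Csf1r* (17.79). Over the 12 arrays *Ighm* had r = 0.47 with *Ms4a1* and 0.21 with *Cd22*, which became 0.01 and -0.28 after quantile normalization. The chosen *Ighm* probe set had r between -0.46 and 0.49 with the gene's other probe sets.

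Of 5 measured B-1 cell genes 2 passed an unadjusted p of 0.05 in the F test, against 5.96% of all genes, with 0 after adjustment by limma. *Siglecg*, an inhibitory lectin that restrains B-1 cells, read 5.37 and 4.74 in antagomir-21 with miR-21 exosomes, 7.66 and 8.87 in antagomir-21 with GFP exosomes, 9.74 and 9.82 in scramble with miR-21 exosomes, 5.97 and 8.87 in scramble with GFP exosomes, 5.46 and 4.01 in lipofectamine with miR-21 exosomes, and 7.43 and 7.93 in lipofectamine with GFP exosomes. With miR-21 exosomes the scramble arrays were thus above both the antagomir-21 and the lipofectamine arrays, and the interaction was -5.57 (SE 1.55, unadjusted p = 0.00471, adjusted p = 0.739 by limma). *Bhlhe41*, a transcription factor of B-1 cells, had an interaction of -4.24 (SE 1.48, unadjusted p = 0.0163, adjusted p = 0.871 by limma). It read 5.34 and 7.36 in antagomir-21 with miR-21 exosomes against 8.79 and 8.18 in scramble with miR-21 exosomes, and 8.90 and 8.06 in antagomir-21 with GFP exosomes against 5.32 and 7.44 in scramble with GFP exosomes. *Cd5*, by which B-1a cells are commonly identified but which T cells carry as well, ran from 2.92 to 8.75. It averaged 7.82 with miR-21 exosomes and 5.59 with GFP exosomes (n = 6 arrays each), and the exosome types overlapped. The log2 fold change was 2.23 (SE 0.99, unadjusted p = 0.0466, adjusted p = 0.909 by limma). All 5 B-1 genes had a negative interaction, as did the 9 members, and the arrays behind these values are the same. The 14 other B lineage genes had 7 above and 7 below 0. Genes of antibody-secreting cells had 4 and 4, and those of B cell precursors 4 and 2. The interaction was also negative for 8 of 11 macrophage genes and for 7 of 8 signaling genes that B cells share with macrophages.

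Genes of antibody-secreting cells and of B cell precursors showed 0 of 8 and 0 of 6 past an unadjusted p of 0.05 in the F test, and their mean r over pairs was 0.02 and -0.10. *Jchain*, the joining chain of secreted antibody, lay between 9.31 and 11.28, whereas *Sdc1* (syndecan-1) lay between 4.88 and 10.41 and the recombinase gene *Rag1* between 5.12 and 8.36. *Rag2* ran from 3.47 to 9.70. Both recombinase genes act in lymphocyte precursors.

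Signaling genes that B cells share with macrophages behaved unlike the B cell markers. The 8 measured, among them the kinase gene *Syk* (10.01 to 11.60), had a mean r of 0.55 over 28 pairs, and their median share of variance within groups was 67.6%. Their mean signal was 8.12 on the second array of antagomir-21 with miR-21 exosomes and 9.07 to 10.76 on the others. Their mean r without that array was not computed. For 11 macrophage genes the mean r was 0.22. Genes of T and NK cells (r = -0.03, 8 genes), mast cells (-0.02, 8 genes) and dendritic cells (0.07, 5 genes) lay near the value of the B cell markers, and so did 39 olfactory receptor genes (0.02), which serve the sense of smell. The mean r of the B cell markers thus lay in the range of lists of other cell types, and the differences between lists were not tested.

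**Figure D4:**
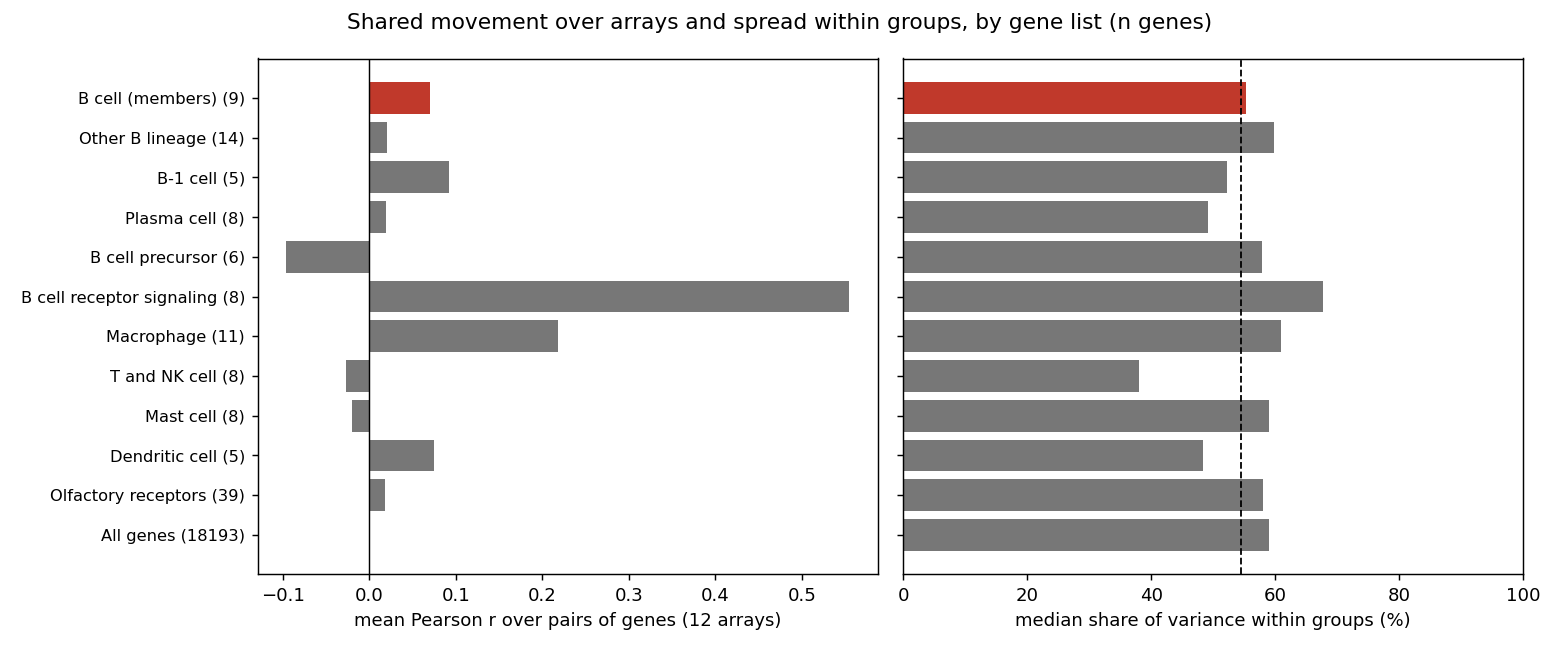
Mean Pearson r over pairs of genes on 12 arrays (left) and median share of variance within groups in percent (right; the dashed line is 54.5%, the share without a group effect), for each gene list with its number of genes. The B cell markers (red) lie at 0.07 and 55.3%, far from the 0.55 of the signaling genes shared with macrophages.

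Some genes of these other cells passed an unadjusted p of 0.05 in limma's F test, while none passed after adjustment. They were 3 of 8 T and NK cell genes, 1 of 8 mast cell genes and 1 of 5 dendritic cell genes, against 5.96% of all genes. Among T and NK cell genes these were *Gzma*, which encodes granzyme A (adjusted p = 0.674 by limma), *Cd247*, the CD3 zeta chain (adjusted p = 0.684), and *Cd2* (adjusted p = 0.809). *Fcer1a* of mast cells (adjusted p = 0.777 by limma) and *Siglech* of plasmacytoid dendritic cells (adjusted p = 0.823) were the others. The CD3 chain *Cd3e* read 3.14 to 10.36 and *Cd3d* 3.23 to 8.11. The mean signal of the T and NK cell genes lay between 5.49 and 7.82 over the arrays and ran with r = -0.33 to the mean of the B cell markers, against 0.26 for the macrophage mean and -0.33 for the array median.

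Of 9090 genes with a mean signal above the median, *Tspan14* (a tetraspanin), *Znrf2* (a ubiquitin ligase) and *Ift140* (a component of intraflagellar transport) ran most like the mean of the B cell markers, with r = 0.95, 0.95 and 0.93 over 12 arrays. None of the B cell lists held any of them.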

How the data were processed

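The 9 members, the marker lists and the tests were chosen with earlier results of these data known. The values used are the log2 signals of probe sets on Affymetrix mouse expression arrays as deposited by the authors, and 12 arrays in 6 groups of 2 were grouped by their labels. The methods describe RMA with quantile normalization and biological triplicates. Array distributions differed, with medians of 7.92 to 8.58, so the values are not quantile normalized; their trimmed linear means (2% off each end) were 496 to 499, so they were kept as given. The methods and the labels name different amplification kits. No depth exists for arrays, and their number limits the precision. The labels do not say that arrays of a group came from separate cultures, so p-values measure the spread between these arrays, which may be technical.

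The platform annotation gave 1 symbol to 34945 of 45037 probe sets and several to 932, and 9160 were absent from it; probe sets without a single symbol were left out. Symbols were updated by gene ID for 34741. Each of 18193 genes was read from the probe set with the highest mean. A model of 6 group means was fitted to all genes in R 4.3.3 with limma 3.58.1 (lmFit, eBayes, Benjamini-Hochberg over all genes), after a test on simulated data. Genes named were the members, *Ighm*, the first 2 genes of each list, list genes with an unadjusted p under 0.05 in the F test and the 3 genes most like the members' mean. Correlations are Pearson's over 12 arrays, as descriptions. Alternatives were quantile normalization, median centring, the mean of all probe sets, genes above the median signal, a replicate block, the methods' t-test and leaving out each array. The other *Pax5* probe set, leaving *Pax5* out, and leaving out both arrays with a low *Cd79a* were added after seeing the data.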

Additional observations from a re-analysis of the deposited data

Results flagged for a closer look

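Among the 9 members, the effect of miR-21 against GFP exosomes ran in opposite directions after scramble and after lipofectamine for *Cd79a* and *Fcrla*. For both genes, the exosome types did not overlap within either transfection. Only the members were searched for this pattern, and the share of all genes that show it was not counted. For *Cd79a* the effect differed by 5.87 log2 units between these transfections. Its signal was 9.83 and 9.88 with miR-21 exosomes and 5.13 and 9.01 with GFP exosomes after scramble, against 4.07 and 7.86 with miR-21 exosomes and 8.93 and 9.15 with GFP exosomes after lipofectamine. Both arrays that were low for *Cd79a* enter this value, and each widens it. For *Fcrla* the effect differed by 0.81. Its signal was 9.69 and 10.17 with miR-21 exosomes and 9.67 and 9.28 with GFP exosomes after scramble, against 8.98 and 8.87 with miR-21 exosomes and 9.22 and 9.35 with GFP exosomes after lipofectamine. In the other probe sets of *Fcrla* the exosome types overlapped after scramble. With miR-21 against GFP exosomes they read 5.18 and 8.18 against 9.40 and 7.29, and 7.02 and 9.65 against 8.59 and 8.48. Neither difference was tested.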

How the results depend on the processing

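No member passed an adjusted p of 0.05 by limma in any comparison under any alternative run. The signs of *Pax5* turned with its other probe set, to -0.41 for miR-21 against GFP exosomes and 0.42 for antagomir-21 against scramble. The mean r over pairs of members was 0.143 with median centring, -0.0212 with the mean of all probe sets and 0.163 without *Pax5*, and 0.00776 to 0.0966 with one array left out. At an unadjusted p under 0.05, the 2 members of the exosome comparison became 1 with the mean of all probe sets, the other *Pax5* probe set, both low *Cd79a* arrays left out, or a replicate block, and 0 among genes above the median signal, where *Pax5*, *Blk* and *Cr2* drop out; they were 1 to 2 with one array left out. The F test over groups had 2 members with a replicate block, 1 without both low arrays and 0 to 2 with one array left out (above 0 without either array of scramble with GFP exosomes, either of antagomir-21 with miR-21 exosomes or the second of lipofectamine with miR-21 exosomes). With one array left out, antagomir-21 against scramble had 0 to 2 members (2 without the second array of scramble with GFP exosomes, 1 without the first of antagomir-21 with miR-21 exosomes), the interaction 0 to 1 (1 without the second array of either of these groups) and scramble against lipofectamine 0; the last had 1 by the methods' t-test. Arrays of the same replicate number were not paired: after removal of group means, 15 correlations between same-numbered arrays ran from -0.192 to 0.167. Median fold changes of the members ran from -0.77 to 0.02 for exosomes, -0.24 to 0.21 for antagomir-21 against scramble, -0.04 to 0.57 for scramble against lipofectamine and -1.52 to -0.77 for the interaction with one array left out, so that those of the first 3 comparisons crossed 0; with the mean of all probe sets the interaction's median was -0.51. The median share of variance within groups ran from 40.3% to 60.3% and the mean r of same-gene probe sets from 0.0372 to 0.108. Where 1 array of a group is left, it is assumed to vary like the other groups.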
